A study of Mus musculus with 6 samples.

Results

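Oxidative phosphorylation in the mitochondrial inner membrane depends on many nuclear genes, and the accessibility of their promoters was measured here in mouse kidney proximal tubules. The genes were all protein-coding genes on chromosomes 1 to 19 and X (GENCODE M21, GRCm38) whose symbol starts with Nduf (complex I), Sdh (complex II), Uqcr (complex III), Cox4 to Cox8 (complex IV) or Atp5 (complex V). This gave 98 of the 21755 genes: 46 for complex I, 8 each for complexes II and III, and 18 each for complexes IV and V. The families were chosen by gene symbol and not by any measured value. The symbols cover subunits, dedicated assembly factors and tissue-restricted isoforms. The libraries were 6 ATAC-seq preparations, in which a transposase cuts open chromatin, each made from 3 hand-dissected tubules of the S1 segment, the part of the proximal tubule nearest the glomerulus. All mice were wild-type male C57BL/6 animals operated on at 7 weeks of age and sampled 24 h later. The Sham group (3 libraries) had a sham operation, and in the UNx group (3 libraries) 1 kidney was removed by surgery (unilateral nephrectomy). Whether the libraries of a group stem from separate mice is not stated, so p-values measure only the spread between these libraries.

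Complex I (NADH dehydrogenase) and complex II (succinate dehydrogenase, also an enzyme of the tricarboxylic acid cycle) feed electrons into the respiratory chain. Complex III passes them to cytochrome c, complex IV (cytochrome c oxidase) passes them to oxygen, and complex V (ATP synthase) uses the resulting proton gradient to make ATP. Proximal tubule cells reabsorb most of the filtrate and take nearly all of their ATP from this process. Known regulators of the nuclear genes include NRF1, the ETS factor GABP, YY1 and the estrogen-related receptors, which cooperate with the coactivator encoded by Ppargc1a.

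The promoters themselves differ in sequence, and 10 stretches just upstream of an annotated start show the range found here. They are read from the RefSeq GRCm38.p6 genome, 5′ to 3′ on the gene's own strand, and end at the base before the start. Capitals mark an exact match, on either strand, to 1 of 9 consensus strings searched, and a stretch wholly in lower case holds none of them. The first 6 illustrate single strings: an E-box (CACGTG) at the highest ranked promoter, Ndufv1 (chr19:4012807-4012926, minus strand), an NRF1 string (CGCATGCG) at Ndufaf4 (chr4:24897963-24898082, plus strand), an ETS string (CCGGAAGT) at Uqcr11 (chr10:80406831-80406950, minus strand) and, on the other strand, at Uqcrh (chr4:116075072-116075191, minus strand), an estrogen-related receptor string (TCAAGGTCA, on the other strand) at Atp5g3 (chr2:73911327-73911446, minus strand), and a CREB and ATF string (TGACGTCA) at Ndufb2 (chr6:39592454-39592573, plus strand).
Ndufv1: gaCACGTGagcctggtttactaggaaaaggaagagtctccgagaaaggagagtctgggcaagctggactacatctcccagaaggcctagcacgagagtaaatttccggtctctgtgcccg
Ndufaf4: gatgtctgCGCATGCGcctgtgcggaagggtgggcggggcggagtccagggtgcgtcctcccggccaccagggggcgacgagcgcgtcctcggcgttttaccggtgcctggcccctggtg
Uqcr11: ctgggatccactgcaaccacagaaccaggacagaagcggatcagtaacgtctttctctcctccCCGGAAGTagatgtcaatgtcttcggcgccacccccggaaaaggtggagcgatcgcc
Uqcrh: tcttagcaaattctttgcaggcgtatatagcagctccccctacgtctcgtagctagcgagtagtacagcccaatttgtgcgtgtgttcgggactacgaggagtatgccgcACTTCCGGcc
Atp5g3: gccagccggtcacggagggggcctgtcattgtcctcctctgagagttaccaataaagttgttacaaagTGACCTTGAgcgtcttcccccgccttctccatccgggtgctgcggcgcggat
Ndufb2: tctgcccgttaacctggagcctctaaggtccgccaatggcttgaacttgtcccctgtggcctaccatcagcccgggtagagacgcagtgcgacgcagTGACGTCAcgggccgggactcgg
The next pair belongs to promoters whose accessibility values are given in full further on, since they had the smallest p-values in the comparison of the groups: Cox6b2 (chr7:4753095-4753214, minus strand) and Sdhaf3 (chr6:6955901-6956003, plus strand).
Cox6b2: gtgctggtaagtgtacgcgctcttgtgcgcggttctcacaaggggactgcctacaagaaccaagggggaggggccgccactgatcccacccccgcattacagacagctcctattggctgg
Sdhaf3: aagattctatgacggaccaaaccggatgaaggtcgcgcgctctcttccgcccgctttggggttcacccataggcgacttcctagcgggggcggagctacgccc
The last pair lies at ubiquitous subunit genes that had weak peaks or none in the lists used here: Cox7b (chrX:106015580-106015699, plus strand) and Ndufa6 (chr15:82354323-82354442, minus strand, with an NFY string, CCAATCA).
Cox7b: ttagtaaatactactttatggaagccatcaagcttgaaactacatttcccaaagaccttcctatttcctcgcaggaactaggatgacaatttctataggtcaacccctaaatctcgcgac
Ndufa6: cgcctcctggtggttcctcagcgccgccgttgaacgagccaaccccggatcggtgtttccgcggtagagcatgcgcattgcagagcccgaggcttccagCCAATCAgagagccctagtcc

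Each library had its own deposited list of peaks, between 77355 and 100999 of them. The 77355 strongest peaks of each list by −log10 q (the peak caller's false discovery measure) were ranked from 0 to 100, where 100 is the strongest and 0 stands for a promoter with no peak among those ranked. A gene took its highest ranked peak whose summit fell no more than 1 kb from an annotated start, and was tested when it had such a peak in at least 3 of the 6 lists. A rank compares a promoter with the other peaks of its own library and is not a read count. The depth of the libraries is unknown. All 7 S1 markers, Slc5a2, Slc34a1 and Hnf4a among them, had a promoter peak in all 6 lists, and their summed percentile was 616.2 to 643.1 in Sham and 621.6 to 632.0 in UNx. These sums hide opposite directions, with 4 markers higher and 3 lower in UNx by their means. The groups did not overlap at Lrp2 (−3.45 points, limma adjusted p = 0.31) and Cubn (−6.64 points, limma adjusted p = 0.365). These 2 are 28.6% of the S1 markers, and 10.6% of all tested promoters were separate with UNx lower. Of 5 markers of segments S2 and S3, 3 had a peak in every list (sums 213.5 to 235.4 in Sham and 191.3 to 224.6 in UNx). Of 7 markers of other nephron segments, 4 did (Umod, Slc12a1, Calb1 and Scnn1g), while Slc12a3, Aqp2 and Avpr2 were at 0 throughout, and the sums were 268.3 to 290.5 in Sham and 237.0 to 262.8 in UNx. None of 9 podocyte, endothelial, stromal and immune markers had a peak in all lists. Pdgfrb, Acta2, Ptprc and Cd68 were at 0 throughout, and the sums were 44.0 to 62.2 in Sham and 0 to 47.0 in UNx. The sums of the other nephron markers did not overlap between the groups, but the markers went in both directions. Slc12a1 (−26.68 points, limma adjusted p = 0.205) and Scnn1g (−6.15 points) had lower means in UNx. Umod (3.91 points) and Calb1 (0.85 points) had higher ones. The part of these markers in the differences below was not tested.

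Nearly all promoters of the oxidative phosphorylation genes were accessible in S1 tubules. A peak was present in all 6 lists at 87 of the 98 promoters (88.8%), against 57.1% of all protein-coding genes. The share was 92.7% for cytosolic and 97.4% for mitochondrial ribosomal protein genes, so it was not particular to this family. Of the 98 promoters, 89 were tested. The median percentile over the tested promoters was 89.5, 89.9 and 90.6 in the Sham libraries and 89.1, 85.0 and 89.5 in the UNx libraries. The same median over all 13298 tested protein-coding promoters was 86.7, 87.2 and 87.0 in Sham and 86.0, 84.8 and 87.8 in UNx. UNx library 2 thus had the lowest median for the oxidative phosphorylation promoters and for promoters in general. A mean percentile over 90 was reached by 41 of the 89 (46.1%), against 39.8% of all tested promoters, and a mean under 50 was seen at 5 (5.62%), against 13.2%.

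**Figure D1:**
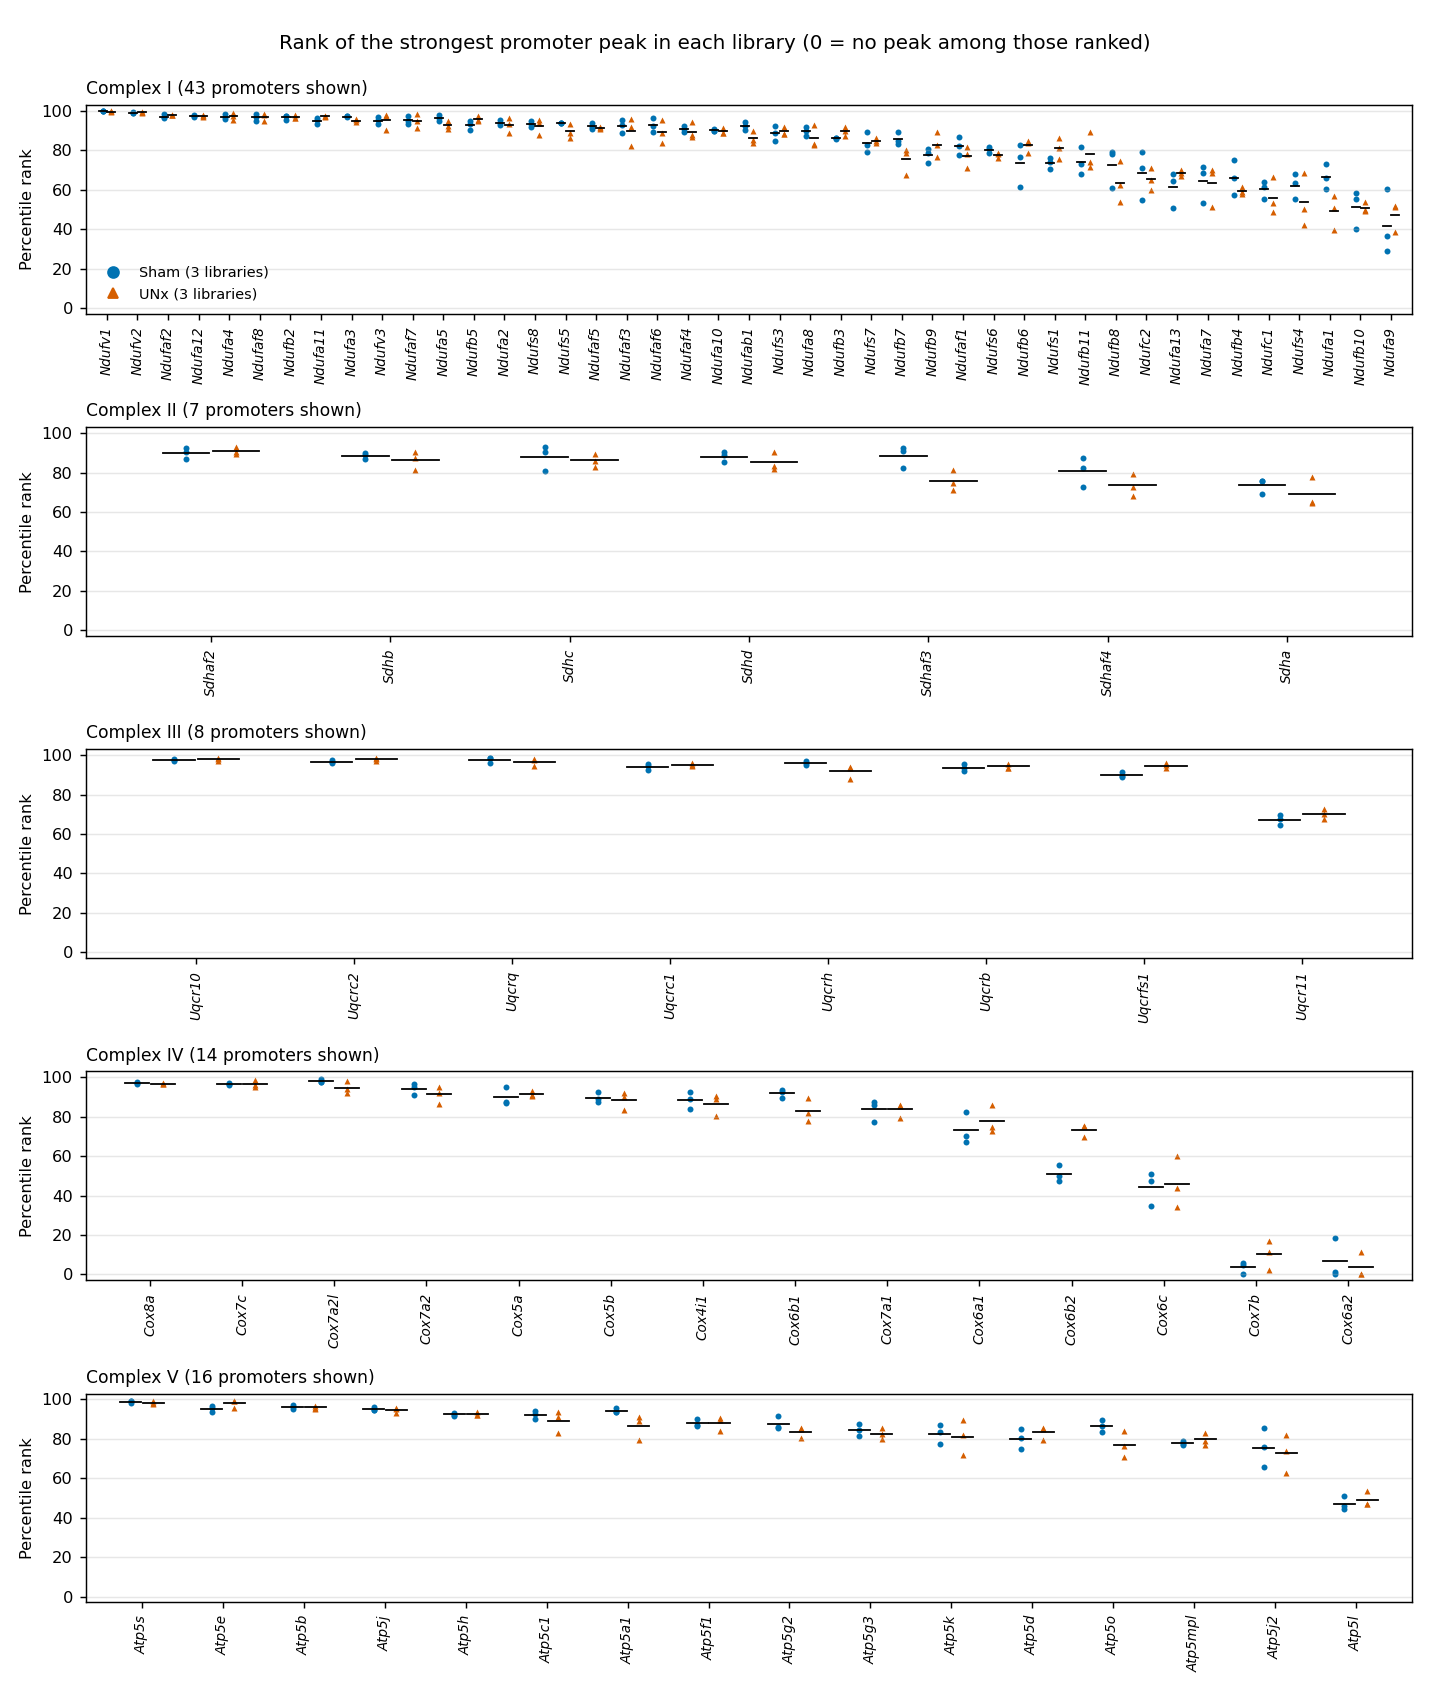
Percentile rank (y axis, 0 to 100) of the promoter peak of 88 of the 89 tested genes (x axis, ordered by mean within a complex) in the 3 Sham libraries (blue circles) and the 3 UNx libraries (orange triangles), with a black line at each group mean. Complex III is compact and high apart from Uqcr11, while complexes I and IV run from above 96 down to weak promoters such as Ndufa9, Cox7b and Cox6a2.

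Complex I, the largest of the complexes, spanned mean percentiles of 44.5 to 99.8 with a median of 89.6 over 44 tested promoters. Ndufv1, which encodes the flavoprotein subunit that takes electrons from NADH, was the highest. Its percentiles were 99.9, 99.8 and 99.8 in Sham and 99.9, 99.8 and 99.4 in UNx, so its peak stood near the top of every library. The core subunits differed in level. Ndufs7, an iron-sulfur subunit next to the quinone site, had 89.1, 79.4 and 82.9 in Sham and 86.4, 83.6 and 84.9 in UNx. Ndufs1, the largest iron-sulfur subunit, lay lower, at 76.0, 74.1 and 70.3 in Sham and 81.2, 75.7 and 86.3 in UNx. For both core subunits the groups overlapped. The Ndufs and Ndufv genes together had a median mean percentile of 91.8 (11 promoters), the Ndufa genes 89.9 (13 promoters) and the Ndufb and Ndufc genes 77.2 (12 promoters). Ndufa9, an accessory subunit, was the lowest tested, at 28.9, 60.2 and 36.4 in Sham and 52.0, 38.4 and 51.2 in UNx. The spread between its Sham libraries was larger than the difference between the group means.

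In complex II the 4 enzyme subunits had mean percentiles from 71.3 to 87.4. Sdha, the flavoprotein that oxidizes succinate, had 75.5, 69.2 and 75.6 in Sham and 65.0, 64.8 and 77.9 in UNx, the lowest of the 7 tested promoters of this complex. Sdhb, the iron-sulfur subunit, had a mean of 87.4, and the membrane anchors Sdhc and Sdhd had means of 87.1 and 86.7. Sdhaf2, needed for adding the flavin to Sdha, was the highest at 90.3. The groups overlapped at each of these 5 promoters.

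Complex III had the highest median of the 5 complexes, 94.3 over its 8 promoters, all of which had a peak in every list. Uqcr10, a small subunit, led with a mean of 97.7, followed by the core protein gene Uqcrc2 at 97.3. Uqcrc1, the other core protein gene, had 92.4, 95.5 and 94.6 in Sham and 95.9, 94.5 and 95.1 in UNx. Uqcr11, another small subunit, stood apart at 69.9, 64.6 and 67.4 in Sham and 72.6, 67.9 and 70.3 in UNx. Its 6 values all lay below those of the other 7 promoters of the complex.

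Complex V promoters had a median of 86.9 over 16 tested genes. Atp5s, annotated as coupling factor B, was the highest with a mean of 98.6, and Atp5l, which encodes subunit g of the membrane part, the lowest with 48.2. Of the genes of the catalytic head, Atp5b (subunit beta) had 96.1, 94.9 and 97.2 in Sham and 96.7, 95.3 and 95.9 in UNx, and overlapped between the groups. Atp5c1 (subunit gamma) had 89.8, 94.0 and 92.8 in Sham and 93.6, 82.8 and 91.3 in UNx, which also overlapped.

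Complex IV had the widest range of mean percentiles, from 5.21 at Cox6a2 to 96.9 at Cox8a. Several of its subunits have isoform genes with restricted expression. For Cox4, Cox6a, Cox8 and Ndufa4, a protein also found in complex IV and counted here under complex I by its symbol, the promoter of the widely expressed isoform had a peak in every list and that of the restricted isoform a low-ranked one in some lists or none. Cox4i1 had 92.7, 83.9 and 89.0 in Sham and 89.1, 80.2 and 90.7 in UNx, whereas Cox4i2, the isoform best known from lung, had a single peak at percentile 6.97 in Sham library 2. Cox6a1, the widely expressed form, lay below the median of all tested promoters, at 70.0, 67.3 and 82.2 in Sham and 85.9, 72.6 and 74.6 in UNx. Cox6a2, the heart and skeletal muscle form, was at or below 18.4 in all 6 libraries and at 0 in 3 of them. Cox8a had a mean of 96.9, while the muscle form Cox8b and the testis form Cox8c had no peak within 1 kb in the lists used here. Ndufa4 had a mean of 97.2, and its hypoxia-associated relative Ndufa4l2 had no peak within 1 kb, the nearest summit lying 1047 to 1932 bp away.

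The Cox7a and Cox6b isoforms did not follow that division. Cox7a1, known as the heart and muscle form, had 87.7, 77.5 and 85.9 in Sham and 79.3, 85.5 and 86.2 in UNx. The widely expressed Cox7a2 had 90.9, 96.8 and 95.0 in Sham and 92.2, 95.3 and 86.6 in UNx, so both promoters ranked high and neither separated the groups. Cox6b2, known as the testis form, had a peak in every list, with a mean of 62.1 against 87.5 for Cox6b1. In the opposite sense, Cox7b, on the X chromosome, is widely expressed but had 6.01, 4.85 and 0 in Sham and 11.6, 2.48 and 17.0 in UNx. Its testis-associated relative Cox7b2 had no peak within 1 kb. The other genes on the X chromosome were Ndufb11 (mean 76.2) and Ndufa1 (mean 57.8), while the median over all 402 tested promoters of that chromosome was 76.2. In male cells this chromosome is present once, and its part in these ranks was not tested.

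**Figure D2:**
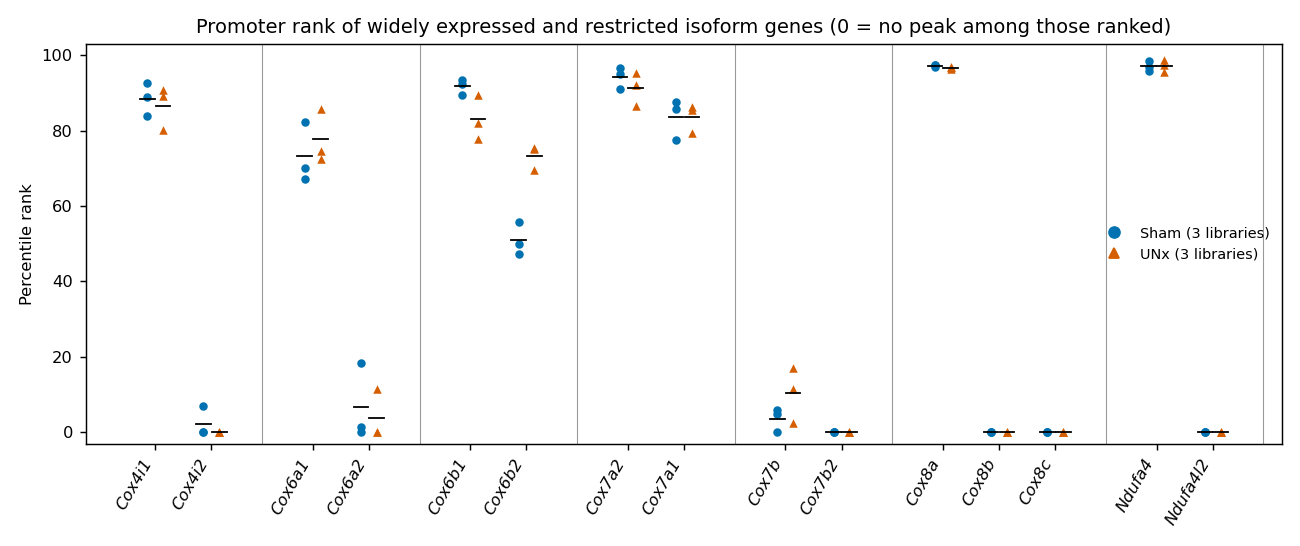
Percentile rank (y axis, 0 = no peak among those ranked) of isoform genes, grouped by subunit (x axis), in 3 Sham libraries (blue circles) and 3 UNx libraries (orange triangles), with a black line at each group mean. Cox4i2, Cox6a2, Cox7b2, Cox8b, Cox8c and Ndufa4l2 lie at or near 0, whereas Cox7a1 and Cox6b2 have peaks in all 6 libraries and only at Cox6b2 and Cox6b1 do the groups not overlap.

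The 11 promoters without a peak in all 6 lists were of different kinds. Cox7b had a peak in 5 lists, Cox6a2 in 3 and Cox4i2 in 1, and 8 had none. Among the 8, Cox7b2, Cox8b, Cox8c and Ndufa4l2 are restricted isoforms. The others are a second annotation under the symbol Atp5o, whose main start had a mean percentile of 81.7, the complex II assembly factor gene Sdhaf1, the complex I subunit gene Ndufa6 and the membrane subunit c gene Atp5g1. At Sdhaf1 the nearest summit lay 1498 to 1514 bp from the start. At Ndufa6 it lay 23323 to 24254 bp away and at Atp5g1 10332 to 27419 bp away. The other subunit c genes, Atp5g2 and Atp5g3, had means of 85.7 and 83.5. The deposited lists had been filtered by a step that is not given in the sources used here, so a missing peak is not a measurement of closed chromatin.

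Removal of 1 kidney was followed by no detected difference at any single oxidative phosphorylation promoter after correction. With limma and Benjamini-Hochberg adjustment over all tested promoters (threshold 0.05), 0 of the 89 were called, against 3 of 13298 promoters in all (0.0226%). The 3 called were Ccdc141 (UNx minus Sham, 49.20 percentile points), Chst15 (−69.42 points) and Dop1b (−99.29 points). The smallest adjusted p among the 89 was 0.169 by limma. An unadjusted p under 0.05 was found at 14 of them (15.7%), against a background of 13.9%. Of these, 4 were higher in UNx (4.49%, against 6.02% of all promoters) and 10 lower (11.2%, against 7.84%). The 3 UNx values all lay above the 3 Sham values at 5 (5.62%), against 9.26% of all promoters, and all below them at 10 (11.2%), against 10.6%. The shares of separate promoters are near or under the background.

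The median difference, UNx minus Sham, was −0.50 percentile points over the 89 promoters, with 36 higher and 53 lower, and −0.19 over all tested promoters. It was −0.46 for complex I, −2.79 for complex II (1 higher and 6 lower), 0.86 for complex III (6 higher and 2 lower), −0.36 for complex IV and −0.61 for complex V. Only complex II kept its sign in all 21 alternatives on a percentile scale (−8.85 to −1.06), and the median of complex III was −0.35 when peaks were ranked by fold enrichment. The alternatives reuse the same libraries, and several left the complex II median at −2.79, so the kept sign is not independent support. The median standard error of a single difference was 2.86 points over the 89 promoters and 3.42 points over the 7 tested promoters of complex II. The library medians of the family had an SD of 0.547 points in Sham and 2.5 points in UNx (n = 3 each), and UNx library 2 had the lowest. Without UNx library 2 the median difference was 0.21, with 48 higher and 41 lower, so the direction of the family rested on that library. The 75 subunit promoters had a median difference of −0.49 and the 11 assembly factor promoters −1.34.

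**Figure D3:**
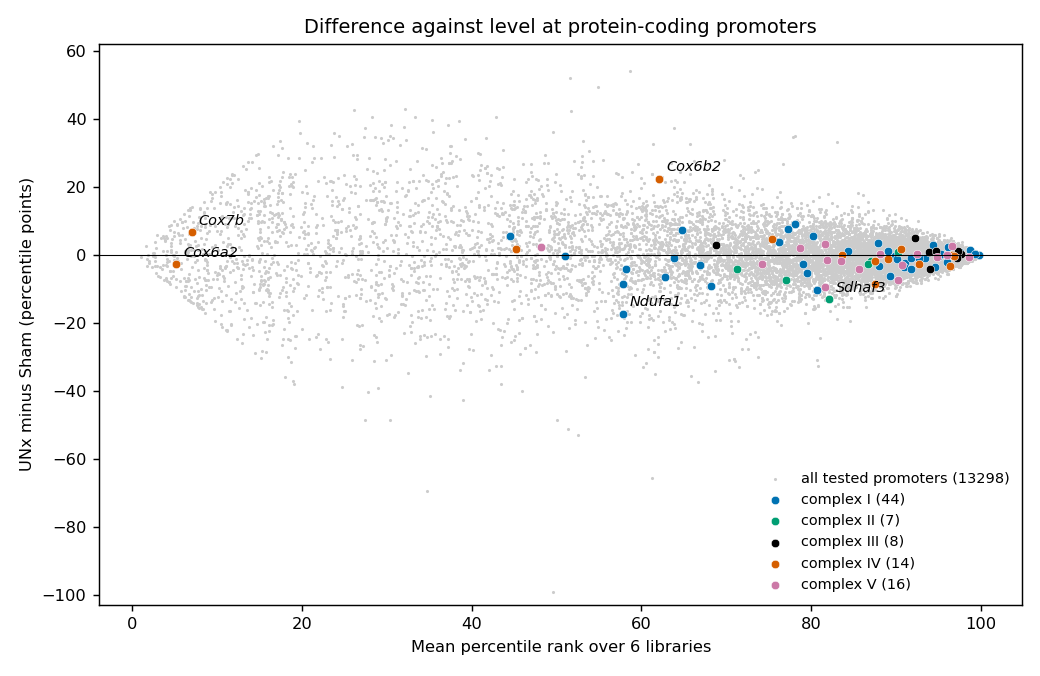
Difference UNx minus Sham in percentile points (y axis) against the mean percentile over 6 libraries (x axis) for all 13298 tested promoters (grey) and the 89 oxidative phosphorylation promoters coloured by complex. The spread of the grey points narrows toward 100, and the coloured points lie within it, with Cox6b2 at 22.37 and Ndufa1 at −17.35 as the outermost.

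The largest difference was at Cox6b2. Its percentiles were 49.8, 55.8 and 47.2 in Sham and 75.3, 69.5 and 75.1 in UNx, so every UNx value lay above every Sham value. The difference was 22.37 points (SE 6.11), with an adjusted p of 0.169 by limma. The percentiles rest on the deposited −log10 q, whose median per library was 14.5, 10.8 and 14.7 in Sham and 12.7, 16.4 and 22.4 in UNx. Raw values are therefore not on a common scale between lists and add no separate evidence. The deposited −log10 q of this peak was 25.9, 14.5 and 24.2 in Sham and 44.6, 59.1 and 101.0 in UNx. Its fold enrichment was 6.63, 5.73 and 6.67 in Sham and 7.77, 7.79 and 8.5 in UNx. The interval held 4 or 5 summits per library. The strongest lay 315 to 618 bp downstream of the nearest annotated start, and the median position fell in an intron. Cox6b1, the widely expressed partner isoform, went the other way, with 89.5, 93.4 and 92.5 in Sham and 82.1, 89.5 and 77.8 in UNx. Its groups were separate by a margin within rounding (lowest Sham value 89.546, highest UNx value 89.520), with a difference of −8.67 and an adjusted p of 0.26 by limma.

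Among complex II genes the smallest p was at Sdhaf3, an assembly factor for the iron-sulfur subunit. It had 92.5, 82.3 and 91.0 in Sham and 74.7, 71.1 and 81.0 in UNx, so the groups were separated by a small gap. The difference was −12.98 points (SE 4.08, limma adjusted p = 0.197). Sdhaf4, an assembly factor for the flavoprotein subunit, had 87.5, 82.2 and 72.5 in Sham and 72.9, 68.1 and 79.4 in UNx, which overlapped. The only complex II promoter with a higher mean in UNx was Sdhaf2, by 0.84 points.

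In complex III the smallest p was at Uqcrfs1, and Uqcrh followed. Uqcrfs1, the Rieske iron-sulfur protein, had 88.8, 91.3 and 89.2 in Sham and 94.9, 93.5 and 95.8 in UNx, higher in every UNx library by a difference of 4.94 points (SE 1.92, limma adjusted p = 0.278). Uqcrh, the hinge protein, had 95.2, 97.2 and 96.0 in Sham and 94.0, 88.0 and 93.6 in UNx, lower in every UNx library by a difference of −4.27 points (SE 1.81, limma adjusted p = 0.309). The next largest positive difference in this complex was 2.97 at Uqcr11, and the next largest negative one −1.05 at Uqcrq, a ubiquinone-binding subunit. Both of these overlapped between the groups.

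In complex I, Ndufa1, an X-linked accessory subunit of the membrane arm, had 65.8, 73.2 and 60.4 in Sham and 39.8, 50.6 and 56.8 in UNx. Its groups did not overlap, and the difference of −17.35 points (SE 7.13) had a limma adjusted p of 0.298. Ndufb7, another accessory subunit, had 83.2, 89.5 and 84.7 in Sham and 78.9, 67.7 and 80.1 in UNx, lower in every UNx library (difference −10.25, limma adjusted p = 0.303). On the other side, Ndufb6 was higher by 8.91 and Ndufs1 by 7.58 points in the group means, and both overlapped.

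In complexes IV and V, Cox7a2l, which encodes a supercomplex assembly protein, and Atp5a1, subunit alpha of the catalytic head, were also among the 10 of smallest p. Cox7a2l had 97.8, 97.4 and 99.0 in Sham and 93.9, 98.2 and 92.2 in UNx, and UNx library 2 lay inside the Sham range (difference −3.33, limma adjusted p = 0.279). Atp5a1 had 93.4, 95.4 and 93.5 in Sham and 79.5, 89.2 and 90.9 in UNx, lower in every UNx library (difference −7.58, SE 2.86, limma adjusted p = 0.262). Atp5o, a stalk subunit, had a difference of −9.37 points and overlapped. The largest positive differences in complex V were 3.13 at Atp5d (subunit delta) and 2.64 at Atp5e (subunit epsilon), which also overlapped. Cox7b, with a difference of 6.74, and Cox5a, a core-associated subunit of complex IV with 1.69, overlapped as well, as did Cox5b with −1.17. None of the 9 promoters of smallest p described here was called in any alternative in which it was tested. All 9 kept the sign of their difference there, which was largely fixed in advance. They were picked by p from these same data, and some alternatives refit the same ranks. Where the groups are separate, leaving out a library cannot change the sign.

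**Figure D4:**
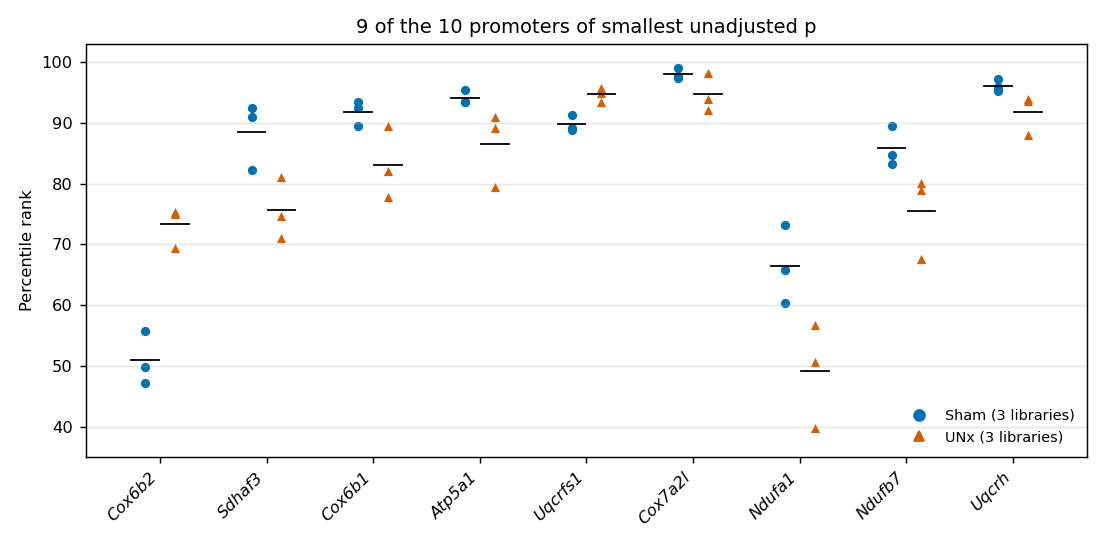
Percentile rank (y axis, drawn from 35) of 9 of the 10 promoters of smallest unadjusted p (x axis, in order of p) in 3 Sham libraries (blue circles) and 3 UNx libraries (orange triangles), with a black line at each group mean. The groups are separate at 8 of these 9, with Cox7a2l the exception, and UNx is higher at Cox6b2 and Uqcrfs1. Picking by p in the same comparison favours separate groups, so this count is a description only. Over all tested promoters the groups were separate with UNx higher at 9.26% and with UNx lower at 10.6%.

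Summit positions gave a second measure at the same promoters. The strongest summit lay outside the gene at 55 of the 89 promoters, in an untranslated exon at 29, in an intron at 4 and in a coding exon at 1. The median distance from the start was −27.5 bp, where a minus sign means upstream, and −25.5 bp over all promoters. The summit lay within 100 bp of the start at 76.4% of the promoters, against 61.6% of all. That share was 77.9% at cytosolic and 71.4% at mitochondrial ribosomal protein promoters. The intervals had a median width of 961 bp against 883 bp, and 95.5% of them held more than 1 summit in the median library, against 82.0%. More than 1 summit was held by 93.5% of cytosolic and 94.8% of mitochondrial ribosomal protein promoters. Widths differ between lists, with medians for these promoters from 775 bp in Sham library 2 to 1076 bp in UNx library 3. The GC content of 201 bp around the summit had a median of 61.7%, against 65.7% over all promoters.

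Of the 87 oxidative phosphorylation promoters with a peak in all 6 lists, 16 (18.4%) had summit positions that did not overlap between the groups, against 18.7% of all such promoters. At 3 of them (3.45%) the group means were also at least 50 bp apart, a distance chosen after the data were seen, against a background of 5.92%. Both shares were at or under the background, so the following positions are given as a description. At Cox4i1 the positions were −1, 5 and −17 bp in Sham and 45, 49 and 46 bp in UNx. At Atp5s they were −84, 31 and −52 bp in Sham and 55, 41 and 68 bp in UNx, and Sham library 1 held an equally strong summit at 34 bp.

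Many of these promoters are shared with a neighbour. An opposite-strand protein-coding start lay within 1 kb at 32 of the 98 genes (32.7%), against 10.6% of all genes, 41.0% of mitochondrial ribosomal protein genes and 17.1% of cytosolic ribosomal protein genes. The share was 39.1% in complex I, 4 of 8 genes in complex II, 37.5% in complex III, 5.56% in complex IV and 33.3% in complex V. Neighbours included other mitochondrial genes: Ndufb5 faces Mrpl47 and Ndufs6 faces Mrpl36, both mitochondrial ribosomal protein genes, and Sdhd faces Timm8b, a protein import gene. Atp5j, subunit F6 of ATP synthase, shares its peak with Gabpa, which encodes the DNA-binding subunit of GABP, at 94.7, 96.3 and 94.6 in Sham and 95.0, 93.2 and 95.6 in UNx. Ndufa7 shares its peak with the ribosomal protein gene Rps28, Ndufs1 with the translation factor gene Eef1b2, and Ndufa1 with Rnf113a1. Atp5a1 shares its peak with Haus1 and Uqcrh with Lrrc41. At such promoters the values belong to both genes and cannot be assigned to either.

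Short consensus strings were searched in the 201 bp around each median summit, on both strands and by exact match, which finds only the strictest form of each site. NRF1 strings (CGCATGCG) were found at 6 of 89 promoters (6.74%, against 2.37% of all tested promoters): Ndufa8, Ndufa13, Ndufaf4, Ndufaf5, Uqcr11 and Atp5k. The share was 5.19% at mitochondrial and 3.9% at cytosolic ribosomal protein promoters. YY1 strings (AAGATGGCG) were found at 7 (7.87% against 2.27%), 5 of them in complex I, and at 9.09% of the mitochondrial ribosomal protein promoters. ETS strings (CCGGAAGT), which GABP can bind, were found at 6 (6.74% against 6.56%), among them Uqcrh and Uqcr11. The estrogen-related receptor string (TCAAGGTCA) was found at Atp5g3 and Sdhd (2.25% against 0.12%). Any of the NRF1, ETS and YY1 strings was present at 18 promoters (20.2%), against 10.6%, and more than 1 of them only at Uqcr11.

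The remaining strings were no more frequent than in promoters at large, or nearly so. SP and KLF strings (GGGGCGGG) were found at 18 (20.2% against 28.4%), E-boxes (CACGTG) at 4 (4.49% against 6.81%) and NFY strings (CCAATCA) at 5 (5.62% against 9.28%). Ndufv1 is not among the 4, since the E-box in its printed stretch lies outside the 201 bp around its summit. The HNF4 string (CAAAGTCCA) was found at 0 (against 0.519%). CREB and ATF strings (TGACGTCA) were found at 3 (3.37% against 2.67%), Ndufa11, Ndufb2 and Uqcrfs1, whose differences were 2.19, 0.30 and 4.94 points. The median difference was −1.14 at the 6 promoters with an NRF1 string and −0.49 at those without. It was −1.46 and −0.16 for the same division of all promoters. With 301 bp in place of 201 bp, an alternative added after the data were seen, NRF1 strings were found at 10 (11.2% against 3.28%), YY1 strings at 11 (12.4% against 3.22%) and CREB and ATF strings at 5 (5.62% against 3.08%). No string is contained in another, and a match is a description of the letters and not a bound site.

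**Figure D5:**
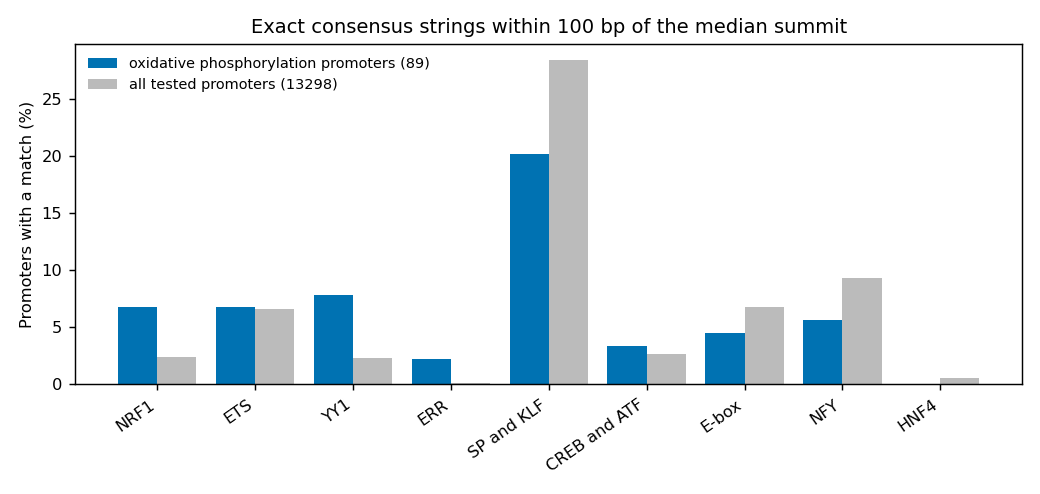
Share of promoters with an exact match (y axis, percent) to the consensus string of each factor family (x axis) within 100 bp of the median summit, for the 89 oxidative phosphorylation promoters (blue) and all 13298 tested promoters (grey). The blue bar is above the grey one for NRF1 (6.74% and 2.37%), YY1 (7.87% and 2.27%) and the estrogen-related receptors (2.25% and 0.12%), and below it for SP and KLF.

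Other gene lists related to the pathway also had no called promoter, and their median differences varied. A list of 36 genes outside the symbol families held those for cytochrome c, copper delivery, assembly factors and the complex III subunit cytochrome c1 (Cyc1). All 36 had a promoter peak in every list, with 18 higher and 18 lower in UNx, a median difference of −0.01 and 0 called. The smallest p was at Cox19, a copper delivery protein for complex IV, with 91.8, 94.2 and 94.5 in Sham and 73.1, 81.6 and 87.5 in UNx (difference −12.75, limma adjusted p = 0.169). Of 20 regulators of mitochondrial gene expression, 19 were tested, with 9 higher and 10 lower, a median of −0.13 and 0 called, and Twnk, the mitochondrial helicase, had no peak within 1 kb. Ppargc1a, the coactivator, had the smallest p, at 71.6, 61.9 and 62.4 in Sham and 81.0, 73.5 and 80.0 in UNx. Its groups did not overlap, and the difference of 12.87 had a limma adjusted p of 0.29. Of 16 tricarboxylic acid cycle genes, 3 were higher and 13 lower, with a median of −1.34 and 0 called. An unadjusted limma p under 0.05 with UNx lower was found at 4 (25.0%), against 7.84% of all promoters. All UNx values lay below all Sham values at 3 (18.8%), against 10.6%. This list as a whole was not tested. Dlat, the acetyltransferase of pyruvate dehydrogenase, had the smallest p there (difference −10.21, limma adjusted p = 0.286).

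Set beside other ubiquitous families, the oxidative phosphorylation promoters lay at similar levels. The median mean percentile was 89.1 for them, 88.6 for 77 cytosolic ribosomal protein promoters and 88.9 for 77 mitochondrial ribosomal protein promoters. The median difference was −0.50, −1.68 and −0.48. All UNx values lay below all Sham values at 11.2% of the oxidative phosphorylation promoters, 20.8% of the cytosolic and 3.90% of the mitochondrial ribosomal protein promoters. None of the 3 families had a called promoter.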

How the data were processed

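Chromatin accessibility was measured by ATAC-seq in 6 libraries, 3 Sham and 3 UNx, grouped by the labels. Per the submitters' processing notes, the authors used cutadapt 3.4, Bowtie, SAMtools, Picard and MACS2 2.2.7.1 with the build mm10. Their roles and settings, and the filter on the peak lists, are not given in the sources used here. The authors deposited 1 list per library, called separately, with a summit position, a fold enrichment (a ratio), a −log10 p, a −log10 q and a display score for each summit. The fold enrichment and −log10 q are the authors' values for each peak and served to describe and rank peaks within a list.

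An interval with its strongest summit was taken as 1 peak. Each list was reduced to the size of the smallest, 77355 peaks, ranked by −log10 q and given percentile ranks. Starts came from GENCODE M21. The ranks of 13298 promoters were tested with limma 3.58.1 in R 4.3.3 (two-sided, with a variance trend and robust estimation, and p-values adjusted by Benjamini-Hochberg over all promoters), after the code was tested on simulated data. The lists of genes, the markers and the string lists were chosen with earlier results of these data known. Named genes were the 10 of smallest p, in each complex the 2 largest differences in each direction and the highest and lowest level, promoters without a peak in all lists, core subunits and isoform pairs. The values of 1 promoter that this rule names are not reported here, and counts and medians include it. Other members were named as examples after their values were seen: Ndufa11, Ndufa13, Ndufa8, Ndufaf4, Ndufaf5, Ndufb2, Atp5g3, Atp5k, Atp5g2, Ndufb5, Ndufs6, Ndufa7, Ndufb11 and Atp5j. Same-numbered libraries of the groups did not deviate together (correlations 0.0421, −0.065 and 0.0362), so numbers were not treated as pairs. Alternatives were other list lengths, ranking values, windows, filters, scales, GC correction, a replicate block, merged regions and each library left out. Tables were handled in Python 3.11.15 with pandas 2.3.3, sequences with pysam 0.24.0.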

Additional observations from a re-analysis of the deposited data

How the results depend on the processing

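No oxidative phosphorylation promoter was called in any of the 22 alternatives, the 6 that leave out a library included. The number with non-overlapping groups stayed between 13 and 18 in the others, and was 18 to 29 when a library was left out, where fewer libraries make separation easier (25 without Sham replicate 1, 24 without Sham replicate 3, 29 without UNx replicate 2 and 23 without UNx replicate 3). The matching shares over all promoters are not given here for the alternatives, so these counts cannot be set against a background. The median difference was −1.92 to −0.0188 over the other alternatives and −1.11 to 0.212 with a library left out. The median over all promoters moved from −0.19 to −1.24 when ranked by fold enrichment and to 0.40 with all deposited peaks, and the oxidative phosphorylation median lay below it in 20 of 21 alternatives on a percentile scale, all but the one without UNx replicate 2. The complex I median was 0.0866 with all deposited peaks and 0.247 without UNx replicate 2, that of complex V 0.363 without UNx replicate 2, and that of complex IV 0.0381, 0.434 and 0.176 without Sham replicate 1, UNx replicate 1 and UNx replicate 2. The median percentile, Sham and then UNx, was 91.4 and 90.4 with all deposited peaks, 70.0 and 63.7 with the 20000 strongest, 83.7 and 80.4 when ranked by fold enrichment, 87.9 and 85.2 with −log10 q of at least 5, and 57.5 and 53.6 among promoters alone, since each changes what a promoter is ranked against. In Sham it was 92.2 with every summit ranked on its own and 88.5 with GC-corrected ranks, with or without the replicate block. Without a library in turn it was 89.7 to 90.4 in Sham and 87.0 to 89.3 in UNx. The number of oxidative phosphorylation promoters with a peak in all 6 lists, 87 in the main setting, depended on list length and window. It was 60 with the 20000 strongest peaks, 72 with a window of 250 bp, 91 with 2.5 kb and 88 with all deposited peaks. The matching shares of all genes are not given here.

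Over all protein-coding promoters, where 3 were called, the count was 1 with the 20000 strongest peaks, with every summit ranked and with a peak required in all 6 lists. It was 6 with GC correction, 21 with percentiles among promoters, 34 with normal scores, 51 with merged regions and 59 with a window of 250 bp. It was 0 without Sham replicate 2 or Sham replicate 3 and 14 without UNx replicate 3, a range of 0 to 14. The cause was not tested. With the replicate block 2 promoters were called, 0 of them oxidative phosphorylation promoters, and the numbers do not pair the libraries. Non-overlapping summit positions numbered 16 to 17 with other rankings and 21 to 33 with a library left out, and those at least 50 bp apart 3 to 4 and 3 to 8. For these summit counts too, the shares over all promoters in the same alternatives are not given here. Peak lists hold no read counts, so depth could not be used, and 3 libraries a group limit what could be called.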
